A study of Homo sapiens with 6 samples.

Results

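Transcripts of the aminoacyl-tRNA synthetases were measured in RCC4, an established line of human clear cell renal carcinoma cells. The set was made of 38 genes, listed by name: 19 cytosolic synthetases, 16 mitochondrial synthetases and 3 partner proteins of the cytosolic complex. They are 38 of the 61541 genes listed in each count table, and 34 of them passed the filter on low counts. The untreated group was 3 cultures of RCC4, and the treated group was 3 cultures of the same line given 1000 U/mL of interferon gamma (IFNγ) and 25 ng/mL of tumour necrosis factor (TNF) for 24 h. Each biological replicate came from 3 flasks, and RNA selected for poly(A) was read as native molecules by direct RNA nanopore sequencing. The comparison asks how these transcripts differ after exposure to both cytokines together; neither cytokine was given alone. All cultures are of 1 line, so the results describe RCC4.

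Aminoacyl-tRNA synthetases join each amino acid to its own tRNA, the step that fixes the genetic code during translation. Human cells use separate sets for the cytosol and for the mitochondrion, both encoded in the nucleus, although KARS1 and GARS1 each supply both compartments. Several cytosolic enzymes sit in a multi-synthetase complex held together by AIMP1, AIMP2 and EEF1E1. WARS1, the cytosolic tryptophanyl-tRNA synthetase, is long known as an interferon-induced gene, and interferon also induces IDO1, the enzyme that starts the breakdown of tryptophan. Uncharged tRNA is sensed by the kinase EIF2AK4 (GCN2), which acts through the transcription factor ATF4 on amino acid transporters, biosynthetic enzymes and many synthetase genes.

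Library totals lay between 3626000 and 4406296 counts, and values are given as CPM, counts on a common library-size scale. The limit for a gene without counts was set at 3 counts, or 0.681 to 0.827 CPM before normalisation, and covers counting error only. All 9 renal carcinoma line markers were detected, with 31397 to 33596 summed counts per untreated and 38648 to 58096 per treated library; 2 were called higher (NNMT and VIM) and 1 lower (PAX8), and their part in the results was not tested. Of 6 leukocyte markers 4 were at 0 in all libraries, and the list summed to 0, 0 and 0 counts without and 2, 1 and 1 with cytokines. Of 7 endothelial and fibroblast markers 5 were at 0. The others, COL1A1 and PDGFRB, summed to 212 to 327 counts per untreated and 96 to 179 per treated library. Of these 2 genes 1 was called lower by edgeR, and 1 was called lower in every other setting. Their part in the results was not tested. The interferon response was present in treated cells: 13 of 16 tested reference genes of IFNγ signalling were called higher, among them IRF1 (edgeR log2 fold change 5.29 with SE 0.22, adjusted p 3.34e-06).

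Of the 34 tested members, 3 rose and 0 fell past the threshold (Benjamini-Hochberg adjusted p below 0.05 over all 10067 genes, edgeR's quasi-likelihood test). Those that rose were WARS1, KARS1 and CARS1, all cytosolic. Across all genes tested, 5.58% were called higher and 2.55% lower. At an unadjusted p under 0.05, 3 members were higher and 4 lower (NARS2, IARS1, RARS2 and MARS2), and DESeq2 and limma voom also called 0 members lower. Over all 10067 genes, those ranked 1935th and 2023rd by edgeR had unadjusted p of 0.0464 and 0.0517. So between 1935 and 2023 genes, in either direction, were under 0.05. Counts at unadjusted p, here and in the lists below, are to be read beside that number. The median log2 fold change was -0.10 over the tested members, beside -0.03 over all genes tested. Libraries of the 2 groups did not overlap in CPM for 5 members that were higher in every treated library (WARS1, KARS1, CARS1, HARS1 and LARS2) and for 5 that were lower in every treated library (IARS1, MARS2, NARS2, RARS2 and WARS2). Over all genes tested, 13.9% were higher and 11.9% lower in this sense. Counts of a gene in a culture do not tell a change in every cell from a change in some cells.

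**Figure D1:**
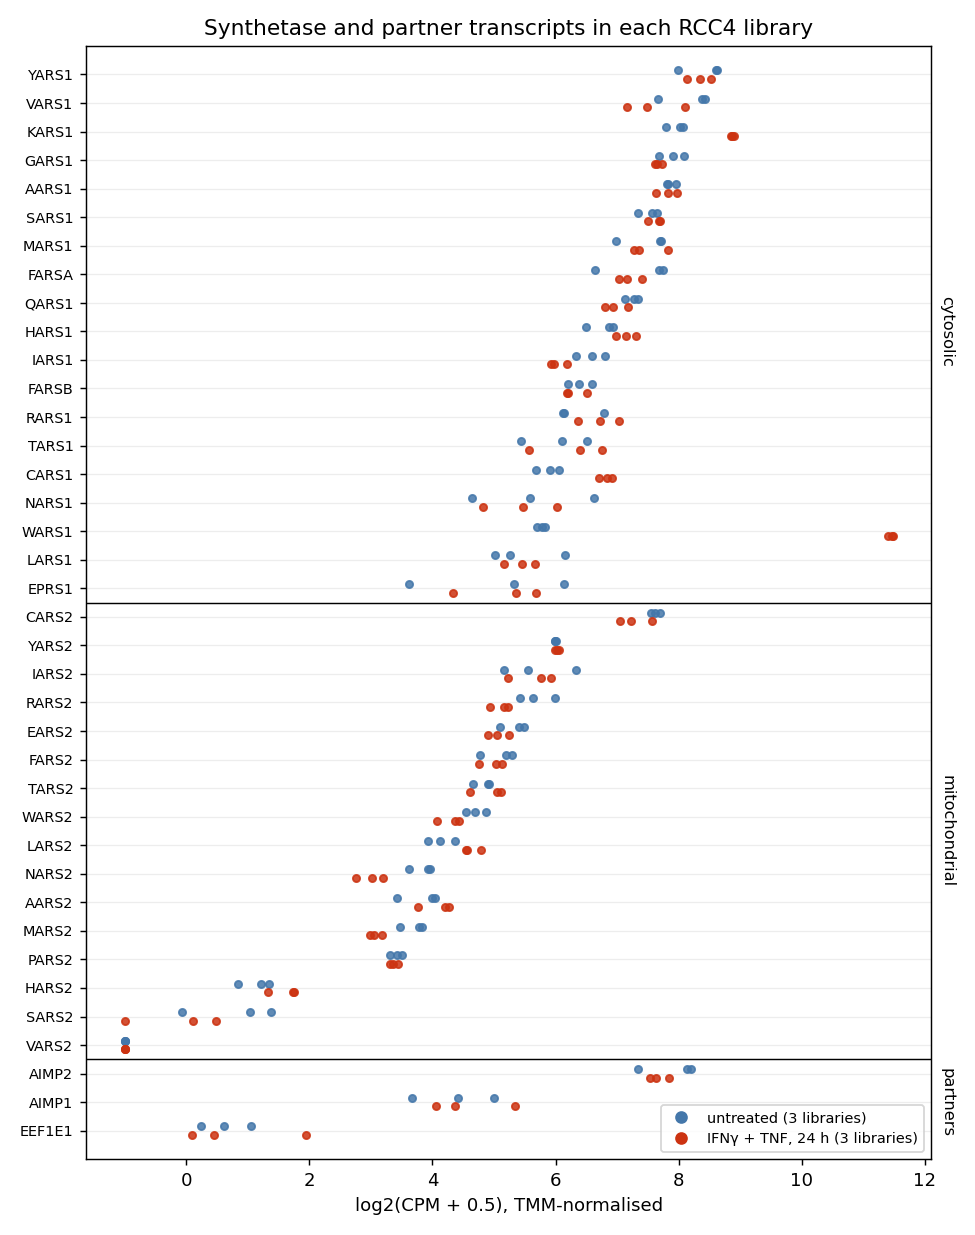
Level of each of the 38 genes in each library, as log2 of CPM plus 0.5 on the horizontal axis. Blue points are the 3 untreated and red points the 3 treated libraries. Genes at -1 had 0 counts. The 3 red points of WARS1 lie far to the right of its blue points, and those of KARS1 and CARS1 lie to the right by less.

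WARS1 had the largest change of the 38 genes. WARS1 (ENSG00000140105; GRCh38 chromosome 14, 100333790 to 100376805, minus strand) had 208, 218 and 227 counts in untreated replicates 1, 2 and 3 and 9819, 11979 and 10020 counts in treated replicates 1, 2 and 3. On the CPM scale these were 54.2, 56.1 and 51.3 in untreated and 2825, 2690 and 2845 in treated libraries. Both groups were tight and lay far apart. The log2 fold change was 5.69 (SE 0.17), a 51.6-fold rise, with an edgeR adjusted p of 1.02e-06, and it stayed between 5.65 and 5.76 when any 1 library was left out. By adjusted p this was the first of all 10067 genes, and by log2 fold change the 68th. Among those genes the treated level of WARS1 ranked 53rd, and its untreated level 2597th.

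The rise of WARS1 moved it from a minor to the leading synthetase transcript. Its share of the summed CPM of the 19 cytosolic synthetases was 1.97% ± 0.0654 before and 50.1% ± 1.498 after exposure (SD, n = 3 each). Of all counts in a library it held 0.00559% ± 0.00019 before and 0.269% ± 0.00957 after (SD, n = 3 each). Levels between genes were also set side by side after CPM was divided by the length in kilobases of the longest protein-coding transcript in GENCODE 29. Reads were of native molecules, so counts need not grow with transcript length. Values per kilobase may therefore favour genes with short transcripts. On that scale WARS1 went from 17.4 ± 0.778 to 901.3 ± 27.3 CPM per kilobase (SD, n = 3 each), from rank 21 to rank 1 of the 38 genes. The next highest in treated cells were KARS1 at 193.6 ± 3.57 and AIMP2 at 165.9 ± 18.5 CPM per kilobase (SD, n = 3 each). In CPM without the division WARS1 was also the highest in treated cells. It was followed there by KARS1 at 468.8 ± 8.64 and YARS1 at 323.9 ± 44.0 CPM (SD, n = 3 each).

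**Figure D2:**
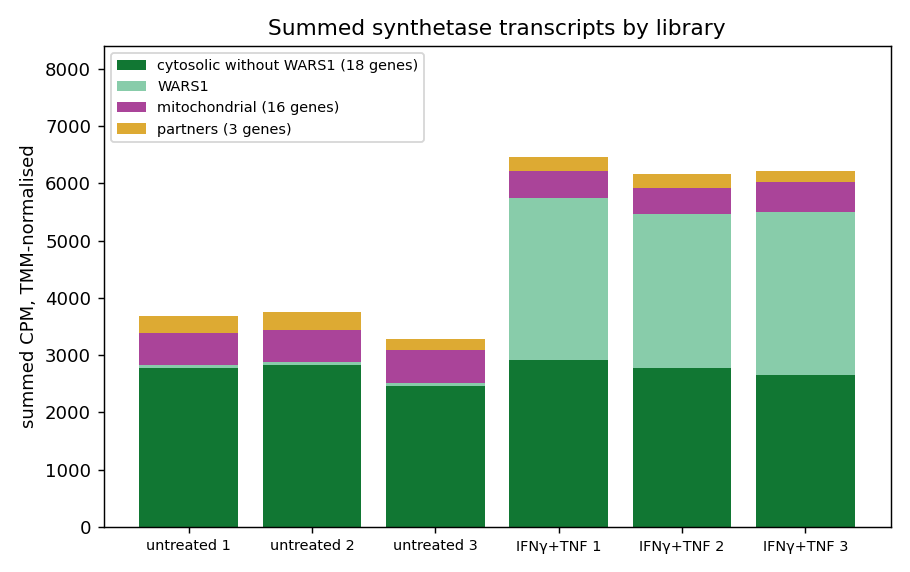
Summed CPM of the members in each library, stacked from the bottom as cytosolic synthetases without WARS1, WARS1, mitochondrial synthetases and partners. The WARS1 segment is a thin band in the untreated bars and about as tall as the other cytosolic synthetases together in the treated bars.

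The other cytosolic synthetases together hardly moved. Their summed level without WARS1 was 2779, 2820 and 2464 CPM without cytokines and 2919, 2772 and 2647 CPM in treated replicates 1, 2 and 3. The groups overlapped, with a ratio of means of 1.03, and the sign of the difference followed the scaling: 91.8 CPM with TMM and -103.6 CPM with library totals alone. Leaving out KARS1 and CARS1 as well gave 2379 ± 164.3 CPM without cytokines and 2198 ± 124.4 CPM in treated libraries (SD, n = 3 each), a ratio of 0.924. Mitochondrial synthetases summed to 552.7, 563.1 and 573.2 CPM without cytokines and 473.3, 465.3 and 526.8 CPM in treated libraries, so that every treated library was lower, by a ratio of means of 0.868. CARS2 alone, with overlapping groups, held 196.2 of the mean 563.0 CPM in untreated and 157.0 of 488.5 CPM in treated libraries. Of the 13 tested mitochondrial genes, 9 had a negative and 4 a positive log2 fold change. Which genes account for the lower sum was not tested. These sums over a chosen set are given without a test.

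KARS1, the lysyl-tRNA synthetase of both cytosol and mitochondrion, also rose. KARS1 (ENSG00000065427; GRCh38 chromosome 16, 75627474 to 75648643, minus strand) had 268.8, 258.6 and 221.4 CPM in untreated replicates 1, 2 and 3, and 477.6, 468.5 and 460.3 CPM in treated replicates 1, 2 and 3. Every treated library was higher than every untreated one, with little spread within the treated group. The log2 fold change was 0.91 (SE 0.16), a 1.88-fold rise, with an edgeR adjusted p of 0.00735. It passed the threshold in 14 of 14 alternatives, with adjusted p of at most 0.0485.

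CARS1, the cytosolic cysteinyl-tRNA synthetase, rose by a like amount from a lower level. CARS1 (ENSG00000110619; GRCh38 chromosome 11, 3000922 to 3057613, minus strand) had 59.7, 66.1 and 51.1 CPM in untreated replicates 1, 2 and 3. The treated cultures, in the same order, had 120.5, 103.3 and 114.2 CPM, again all above the untreated libraries. The log2 fold change was 0.93 (SE 0.18), a 1.91-fold rise, with an edgeR adjusted p of 0.0125. It was past the threshold in 12 of 14 alternatives, and was not when treated replicate 1 (adjusted p 0.0532 in edgeR) or treated replicate 3 (0.0593) was left out. Its mitochondrial counterpart CARS2 had 196.2 ± 9.74 CPM without cytokines and 157.0 ± 29.3 CPM in treated libraries (SD, n = 3 each; edgeR log2 fold change -0.32 with SE 0.18, adjusted p 0.40). Per kilobase, CARS1 stood at 0.205 times the level of CARS2 in untreated and at 0.489 times in treated cells. In each of the 9 other pairs of matching name with both genes tested, the cytosolic gene was the higher one in untreated cells. EPRS1, the cytosolic glutamate enzyme, is outside these pairs and stood below mitochondrial EARS2, at 8.03 ± 5.78 against 10.1 ± 1.41 per kilobase (SD, n = 3 each). In CPM their untreated means were 40.25 and 39.99.

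**Figure D3:**
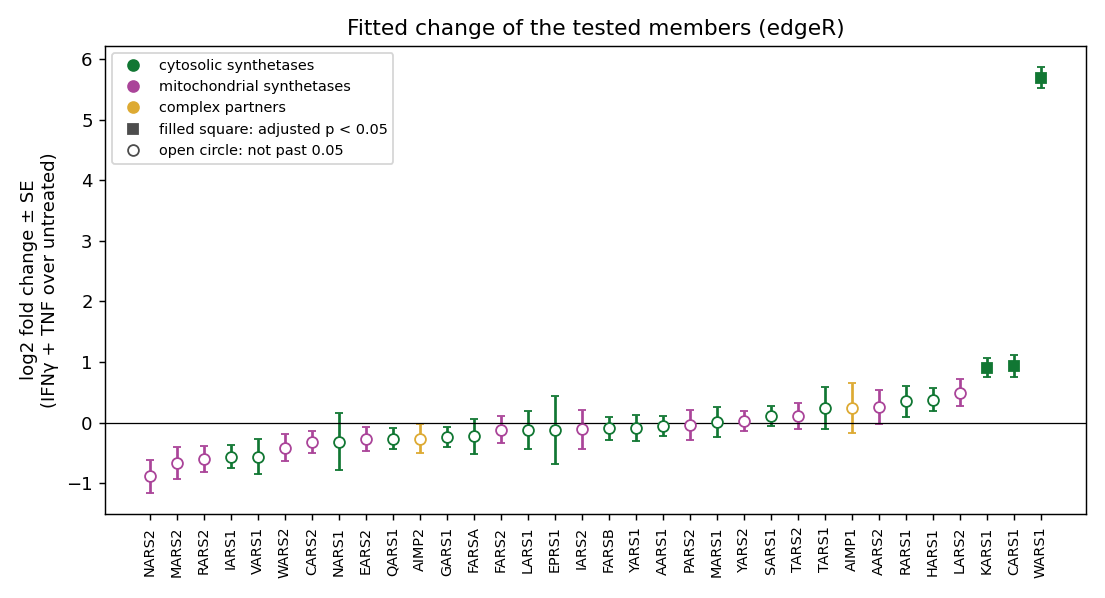
Fitted log2 fold change, treated over untreated, of the 34 tested members in ascending order, with bars of 1 SE. Filled squares passed an edgeR adjusted p of 0.05 and open circles did not. WARS1 stands at 5.69, CARS1 at 0.93 and KARS1 at 0.91, and the other members lie between -0.89 and 0.49.

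The start regions of these genes were searched for 3 motifs: the gamma-activated site (GAS, TTCNNNGAA), an element of IFNγ-responsive promoters, the core of the interferon-stimulated response element (ISRE, GAAA, any 2 bases, GAAA), to which IRF proteins bind, and the core of the amino acid response element (TGATGNAAN), to which ATF4 with a C/EBP partner binds. Windows were 250 bases before to 50 bases after RefSeq start sites on GRCh38.p14, and both strands were searched. GAS and ISRE letters can overlap each other. A window was present for 33 of the 38 genes, 45 windows in all. GAS letters were found in 7.66% of the windows of all genes, ISRE core letters in 3.57%, amino acid response element letters in 3.61%, and GAS with ISRE core in 0.439%.

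WARS1 had 2 windows, with start sites 980 bases apart, chr14:100376278-100376577 and chr14:100375298-100375597, both on the minus strand. The first held none of the 3 motifs. The second held a GAS from position -142 to -134 and an ISRE core from -55 to -46, counted from the start site as 0, and was the only 1 of the 45 member windows with both. Both windows lie within exons of WARS1 in the gene models of the count tables, and counts per gene cannot tell which start the reads came from. The stretches of 30 bases around both matches are printed because WARS1 is the member that changed most, with the matched letters in capitals, 5′ to 3′ on the strand of the gene.
WARS1 GAS, chr14:100375470-100375499: gctcaagtgtTTCTGAGAAtctgggtgatt
WARS1 ISRE core, chr14:100375383-100375412: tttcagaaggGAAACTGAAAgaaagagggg
For comparison, WARS2, the mitochondrial tryptophanyl-tRNA synthetase, held a GAS, and EARS2, the mitochondrial glutamyl-tRNA synthetase, an ISRE core in the reverse direction, and neither gene was called.
WARS2 GAS, chr1:119140844-119140873: gaaattctccTTCCAGGAAggctgagcaga
EARS2 ISRE core, chr16:23557554-23557583: cctgccacgcTTTCGCTTTCccaagctgaa
GAS letters also stood in windows of CARS1, TARS1 and PARS2, so that 7 of 45 member windows, from 5 genes, held them. The same letters of WARS2 lie in both of its windows and were counted in each. A match is a description of letters and shows no binding.

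The amino acid response element core was found in 8 member windows, each of a different gene: AARS1, CARS1, GARS1, IARS1, MARS1, NARS1, TARS1 and YARS2. In CARS1 it lay across the start site, with a GAS directly after it. The window of KARS1 held none of the motifs. The stretches are printed to show the letters that these genes share: the core reads TGATG in the forward direction in NARS1 and YARS2 and as its reverse complement in the others.
CARS1, chr11:3057402-3057431: cggcgGTTGCATCAgaTTCTAGGAAgtgtc
AARS1, chr16:70289675-70289704: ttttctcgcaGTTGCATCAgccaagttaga
IARS1, chr9:92293692-92293721: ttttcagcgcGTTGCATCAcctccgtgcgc
MARS1, chr12:57488053-57488082: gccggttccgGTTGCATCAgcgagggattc
TARS1, chr5:33440956-33440985: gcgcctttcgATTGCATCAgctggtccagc
GARS1, chr7:30594834-30594863: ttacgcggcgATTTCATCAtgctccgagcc
NARS1, chr18:57621803-57621832: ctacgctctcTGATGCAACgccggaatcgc
YARS2, chr12:32756075-32756104: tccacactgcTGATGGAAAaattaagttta
Of these 8 genes only CARS1 was called. The log2 fold changes of the other 7 were -0.05 for AARS1, -0.24 for GARS1, -0.56 for IARS1, 0.01 for MARS1, -0.32 for NARS1, 0.24 for TARS1 and 0.02 for YARS2.

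Among the other cytosolic enzymes, IARS1 (isoleucine) and VARS1 (valine) had the largest fitted differences. IARS1 had 80.0, 95.7 and 111.0 CPM without cytokines and 60.4, 71.9 and 62.2 CPM in treated replicates 1, 2 and 3. All treated libraries were lower, and edgeR gave a log2 fold change of -0.56 (SE 0.19; adjusted p 0.129). VARS1 had 330.8, 341.8 and 202.8 CPM without cytokines and 273.9, 178.1 and 142.0 CPM in treated libraries. Here the groups overlapped, with untreated replicate 3 below treated replicate 1, and the log2 fold change of -0.56 (SE 0.29) had an edgeR adjusted p of 0.334. HARS1 (histidine) was higher in every treated library, with 122.3, 115.8 and 89.5 CPM without cytokines and 141.0, 125.3 and 158.5 CPM in treated libraries. Its log2 fold change was 0.37 (SE 0.19; adjusted p 0.331 in edgeR), and exons of DND1 cover 17.6% of its 3′ bases on the same strand.

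Of the 10 members of the multi-synthetase complex on the list, 9 were tested, 4 with a positive and 5 with a negative log2 fold change, and KARS1 was the only one called; the signs of EPRS1, LARS1, MARS1 and AIMP1 turned in some alternatives. EPRS1 (glutamate and proline) had a log2 fold change of -0.12 with an SE of 0.55. LARS1 (leucine) stood at -0.12, MARS1 (methionine) at 0.01, QARS1 (glutamine) at -0.27 and RARS1 (arginine) at 0.35. The scaffold genes AIMP1 and AIMP2 had log2 fold changes of 0.24 (SE 0.42) and -0.27 (SE 0.24). AIMP2 had the highest untreated level per kilobase of the 38 genes, 199.6 ± 59.1 (SD, n = 3), and AIMP1 stood at 8.32 ± 3.71 (SD, n = 3). That rank rests on the short transcript of AIMP2, 1225 bases. In CPM its untreated mean of 244.5 was below those of YARS1 (344.0), VARS1 (291.8) and KARS1 (249.6). Outside the complex, 12 cytosolic synthetases were tested and WARS1 and CARS1 were called.

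None of the remaining cytosolic enzymes outside the complex was called. AARS1 (alanine), FARSA and FARSB (the subunits of the phenylalanine enzyme), GARS1 (glycine), NARS1 (asparagine), SARS1 (serine), TARS1 (threonine) and YARS1 (tyrosine) had log2 fold changes from -0.32 for NARS1 to 0.24 for TARS1. Their SE ran from 0.165 for AARS1 to 0.472 for NARS1, so the fits do not show that these genes were unchanged. None of them separated the groups. Their edgeR adjusted p ran from 0.534 for GARS1 to 0.922 for AARS1.

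None of the 13 tested mitochondrial synthetases was called in edgeR's test, with 3 lower and 0 higher at an unadjusted p under 0.05 and 0 called by DESeq2 or limma voom. Their median log2 fold change was -0.12, and 9 of 13 were negative, with signs that turned in some alternatives for FARS2, IARS2, PARS2 and YARS2. NARS2 (asparagine; ENSG00000137513; GRCh38 chromosome 11, 78435968 to 78574874) had 15.1, 11.8 and 14.7 CPM without cytokines and 8.63, 7.64 and 6.25 CPM in treated replicates 1, 2 and 3. All treated libraries were lower, by 0.89 on the log2 scale (edgeR log2 fold change -0.89 with SE 0.27, adjusted p 0.0863). MARS2 (methionine) had 13.3, 10.6 and 13.8 CPM without cytokines and 7.77, 8.53 and 7.38 CPM in treated libraries, and edgeR fitted a log2 fold change of -0.67 (SE 0.26; adjusted p 0.193). RARS2 (arginine) had 49.3, 42.5 and 62.9 CPM without cytokines and 30.2, 35.3 and 36.9 CPM in treated libraries, and edgeR fitted a log2 fold change of -0.60 (SE 0.21; adjusted p 0.15). For both genes the groups did not overlap.

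LARS2 (leucine) went the other way, with 16.9, 20.1 and 14.7 CPM without cytokines and 22.7, 23.1 and 27.0 CPM in treated libraries. Its log2 fold change of 0.49 (SE 0.22) had an edgeR adjusted p of 0.266. WARS2, which charges the same amino acid as WARS1 but in the mitochondrion, had 22.9, 25.2 and 28.7 CPM without cytokines and 16.4, 21.1 and 20.2 CPM in treated libraries. All treated libraries were lower, and edgeR gave a log2 fold change of -0.41 (SE 0.22; adjusted p 0.353). Per kilobase the ratio of WARS1 to WARS2 was 1.91 in untreated and 131.8 in treated cells. In CPM without that division, the means of WARS1 and WARS2 were 53.9 and 25.6 in untreated and 2787 and 19.2 in treated libraries. The other tested mitochondrial genes were AARS2, CARS2, EARS2, FARS2, IARS2, PARS2, TARS2 and YARS2, with log2 fold changes from -0.32 for CARS2 to 0.25 for AARS2. YARS2 (tyrosine) had the tightest untreated group of the tested members, with 63.1, 63.6 and 63.1 CPM, and 62.7, 66.0 and 64.5 CPM in treated libraries.

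The 4 members that were not tested had few counts. For HARS2 the untreated libraries held 7, 5 and 9 counts and the treated ones 10, 9 and 10. For SARS2 these were 8, 6 and 2 against 2, 4 and 0, and for EEF1E1 they were 6, 4 and 3 against 3, 15 and 2. VARS2 was at 0 in every library. Same-strand exons of another gene overlap 97.5% of the last 1000 exonic bases of VARS2, 70.9% of those of SARS2, 15.2% of those of HARS2 and 0 of those of EEF1E1, of which 18.8% of all exonic bases are shared. Reads that touch exons of more than 1 gene may have been left uncounted, so these low counts do not show low expression. HARS1 and HARS2 are transcribed from start sites 85 bases apart on opposite strands, and their start windows share 184 bases.

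Replicates of 1 group differed widely for some members. In untreated cells the highest library was at least 2 times the lowest for 7 of 34 tested members (EPRS1, NARS1, AIMP1, IARS2, LARS1, FARSA and TARS1), beside 27.7% of all genes tested. EPRS1 was the most variable, with 11.7, 39.4 and 69.6 CPM without cytokines and 19.6, 51.0 and 40.6 CPM in treated replicates 1, 2 and 3. Over the 34 members, the log2 ratio of untreated replicate 3 to untreated replicate 1 fell with the GC content of the transcript (Pearson r -0.69, Spearman rho -0.71), as it did over all 10022 genes with a GC value (r -0.54). The log2 ratio of treated replicate 2 to treated replicate 1 gave r -0.78 and rho -0.83 over the same 34 members. These are correlations across genes that share the same libraries and are given as descriptions. The log2 fold change between the groups showed no such slope over the 33 tested members other than WARS1 (r 0.01). WARS1, with a GC content of 51.8%, lay near 0 in both replicate ratios.

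**Figure D4:**
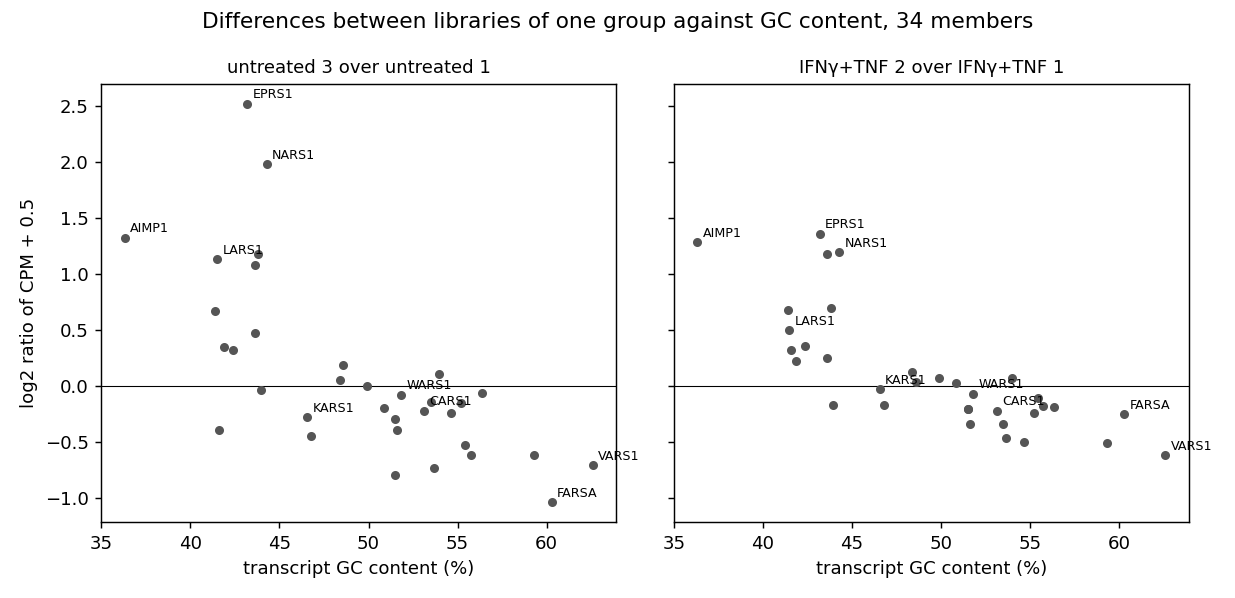
Log2 ratio of CPM plus 0.5 between 2 libraries of the same group, against transcript GC content in percent, for the 34 tested members. On the left is untreated replicate 3 over 1 and on the right treated replicate 2 over 1. Members of low GC content such as AIMP1, EPRS1 and NARS1 lie above 0, members of high GC content such as FARSA and VARS1 below, and WARS1 near it.

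Genes of tryptophan handling were examined next because WARS1 uses tryptophan. Of 16 genes on the list, 7 were tested, 1 was called higher and 2 lower. Over all settings 1 to 2 were called higher and 2 to 3 lower, and 4 were lower at an unadjusted edgeR p under 0.05. QPRT and KYNU were named after their values were seen. QPRT was lower in every treated library (edgeR log2 fold change -0.54, SE 0.16, adjusted p 0.0733). KYNU, not tested, had 1, 0 and 2 counts without and 4, 30 and 26 with cytokines. IDO1 had 0 counts in every untreated library and 1496, 3895 and 6490 counts in treated replicates 1, 2 and 3, at least 1410-fold higher on the CPM scale against a limit of 3 counts per library. SLC7A5 and SLC3A2 encode the light and heavy chains of the transporter that brings tryptophan and other large neutral amino acids into the cell, and both fell. SLC7A5 had 496.1, 431.3 and 423.5 CPM without cytokines and 144.7, 107.1 and 85.2 CPM in treated libraries (edgeR log2 fold change -2.004 with SE 0.22, adjusted p 0.000579). SLC3A2 had 409.3, 398.6 and 376.5 CPM without cytokines and 206.6, 165.1 and 211.8 CPM in treated libraries (edgeR log2 fold change -1.02 with SE 0.17, adjusted p 0.00553). Groups did not overlap for either gene, and both kept their calls in 14 of 14 alternatives.

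The targets of the amino acid response showed no common direction. Of 28 genes, 21 were tested, 2 rose and 2 fell past the threshold, and the median log2 fold change was -0.09. The log2 fold change was positive for 10 and negative for 11. At an unadjusted edgeR p under 0.05, 3 were higher and 4 lower. Over all settings 2 to 3 were called higher and 2 to 4 lower. ATF3 and CEBPB, transcription factors that also respond to inflammatory signals, rose, with log2 fold changes of 3.42 (SE 0.29; adjusted p 0.000124 in edgeR) and 2.55 (SE 0.26; adjusted p 0.000353 in edgeR). Those called lower were SLC7A5 and SLC3A2. ATF4 itself had 222.9, 205.1 and 196.5 CPM without cytokines and 254.6, 191.1 and 217.5 CPM in treated libraries, overlapping groups and edgeR fitted a log2 fold change of 0.09 (SE 0.17; adjusted p 0.876). ATF4 is regulated mainly through its translation, which transcript counts do not measure. ASNS, the asparagine synthetase and a standard readout of this response, had 0 counts in all libraries, and 98.9% of its 3′ bases are shared with another gene, so it gives no reading here.

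**Figure D5:**
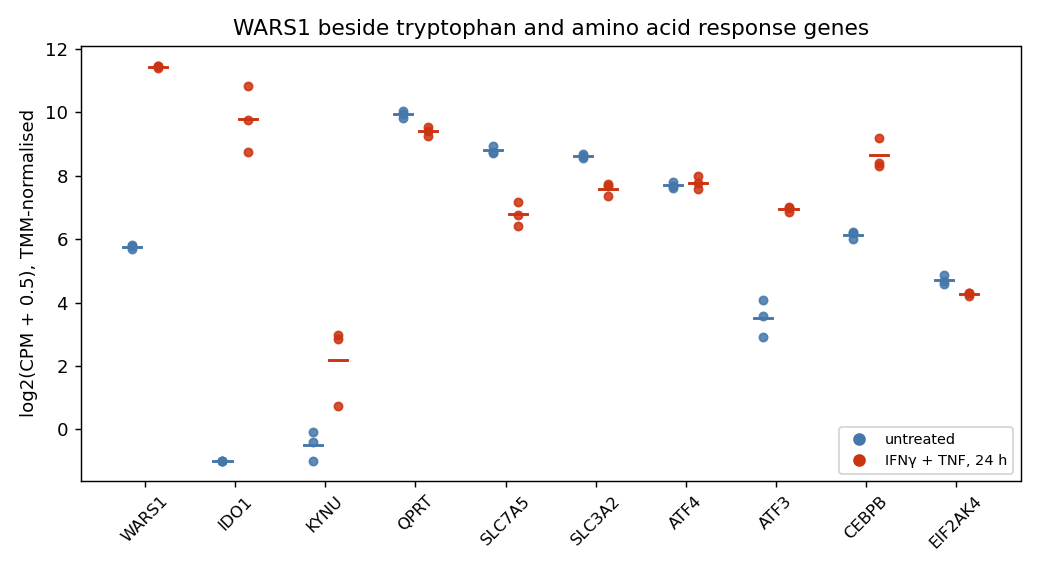
Level of WARS1 and of 9 tryptophan and amino acid response genes in each library, as log2 of CPM plus 0.5, with untreated libraries in blue, treated libraries in red and a line at each group's mean. WARS1, IDO1, KYNU, ATF3 and CEBPB are higher in all treated libraries, QPRT, SLC7A5, SLC3A2 and EIF2AK4 lower, and ATF4 overlaps. KYNU had too few counts to be tested, and QPRT and EIF2AK4 were not called. Points at -1 are 0 counts.

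None of the 15 kinases and regulators of eIF2α, all tested, was called by edgeR or limma voom, 2 were higher and 0 lower at an unadjusted p under 0.05, and DESeq2 called 1 higher. EIF2AK4, the sensor of uncharged tRNA, had 25.3, 28.6 and 23.5 CPM without cytokines and 17.8, 19.1 and 19.3 CPM in treated libraries. Every treated library was lower, and edgeR fitted a log2 fold change of -0.46 (SE 0.21; adjusted p 0.257). EIF2AK2 (PKR), named after its values were seen, had 6.52, 9.26 and 13.1 CPM without cytokines and 14.96, 30.3 and 23.9 CPM in treated libraries (log2 fold change 1.25, SE 0.35). Its edgeR adjusted p was 0.0628, and it was past the threshold in 7 of 14 alternatives.

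Downstream and upstream of charging, few genes differed. Of 10 cytosolic elongation factors 9 were tested and 0 called by edgeR, DESeq2 or limma voom, with 2 lower and 0 higher at an unadjusted p under 0.05. EEF1A1, which carries charged tRNA to the ribosome, had a log2 fold change of -0.14 (SE 0.19; adjusted p 0.804 in edgeR). Its paralogue EEF1A2, named after its values were seen, had the largest difference of the list, with 7.30, 9.52 and 6.11 CPM in untreated and 4.03, 3.14 and 1.14 CPM in treated libraries. All its treated libraries were lower, and edgeR fitted a log2 fold change of -1.45 (SE 0.45; adjusted p 0.097), past the threshold in 4 of 14 alternatives. The 16 tested genes of tRNA maturation and proofreading and the 12 tested mitochondrial translation factors each had 0 calls by these 3 tools, with 1 lower and 0 higher in each list at an unadjusted p under 0.05. The GAIT complex, in which EPRS1 joins RPL13A, SYNCRIP and GAPDH to silence translation in IFNγ-treated myeloid cells, had 0 of 3 partners called by edgeR or limma voom. RPL13A had 381.9, 404.6 and 447.9 CPM without cytokines and 284.3, 294.0 and 274.9 CPM in treated libraries. Same-strand exons of other genes overlap 14.1% of the exonic bases of RPL13A and 0 of its last 1000. All its treated libraries were lower, and edgeR fitted a log2 fold change of -0.53 (SE 0.16; adjusted p 0.0736), and it was the 1 partner lower at an unadjusted p under 0.05 and the 1 that DESeq2 called lower.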

How the data were processed

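The authors deposited read counts per gene for 6 libraries (3 untreated, 3 treated). Per the file headers, these counts were made with featureCounts 2.0.1 in long-read mode, with strand, on Ensembl 105 gene models of GRCh38. The submitters' processing notes name minimap2 2.24, SAMtools 1.16, featureCounts 2.0.0 and hg38. The word dmso stands in the alignment names of every header, but the labels name no vehicle; groups follow the labels. Per the series design text, only reads over a mean quality of 7 entered. The headers set neither multi-mapping nor multi-overlap counting, so reads shared between overlapping genes may be uncounted.

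Counts were tested with edgeR 4.0.16 in R 4.3.3 (quasi-likelihood F test, TMM, filterByExpr, group alone, Benjamini-Hochberg over 10067 genes, threshold 0.05). CPM is the count over the library total times its TMM factor. SE is the absolute log2 fold change over the square root of F. P-values measure the spread between cultures titled as biological replicates of 1 line. Alternatives were DESeq2 1.42.0 size factors and its Wald test, limma 3.58.1 voom, library totals alone, 2 further filters, a replicate block, leaving out each library, and GC content offsets, the last added after the data were seen. The scripts were tested on simulated data. Symbols matched all 38 members. Members and lists were chosen with earlier results of these data known. All members are accounted for; library values are given for members past the threshold, the 6 with the largest other differences, members of 3 counts or fewer, and some others chosen after their values were seen, and list genes were named by call (at most 4 a direction) or as partners of a member. A planned comparison of protein sequences was not run. Start windows are from RefSeq, GRCh38.p14. Single values of some list genes are not reported here.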

Additional observations from a re-analysis of the deposited data

How the results depend on the processing

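WARS1 and KARS1 were past the threshold in 14 of 14 alternatives, and CARS1 in 12. The number of members called higher was 3 in every alternative with all libraries and ran from 2 to 3 without 1 library; no member was called lower in any of those fits without 1 library. The replicate number as a block gave 2 members lower, NARS2 (edgeR adjusted p 0.0431) and VARS1 (0.0306), and GC content offsets gave 1, IARS1 (edgeR adjusted p 0.0256). The numbers were not taken as pairs because the labels state no pairing. Same-numbered libraries had correlations of their deviations of 0.651, -0.004 and 0.374, and only for replicate 1 was the own number the best match in both directions. These correlations cannot tell paired from unpaired cultures, since replicate differences in both groups also went with GC content. With the block, 907 genes were called higher and 606 lower over all genes, beside 562 and 257.

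Library totals alone moved the median over all genes from -0.03 to -0.13 (log2 fold change) and that over the tested members from -0.10 to -0.20, with 485 genes called higher and 364 lower. With that scaling the summed differences, treated minus untreated, were 2528 CPM for the cytosolic synthetases, -103.6 CPM for them without WARS1 and -113.9 CPM for the mitochondrial ones. Signs turned for members not called: EPRS1 with limma voom (0.11) and the block (0.049), MARS1 with library totals alone (-0.092) and GC content offsets (-0.065), and YARS2 with the same 2 (-0.080 and -0.041). Without 1 library the log2 fold change ran from -0.13 to 0.082 for AARS1, -0.53 to 0.54 for EPRS1, -0.19 to 0.036 for FARSB, -0.31 to 0.30 for LARS1, -0.20 to 0.15 for MARS1, -0.65 to 0.34 for NARS1, -0.27 to 0.027 for YARS1, -0.27 to 0.0060 for FARS2, -0.31 to 0.29 for IARS2, -0.071 to 0.0071 for PARS2 and -0.20 to 0.62 for AIMP1. The highest values of EPRS1, LARS1, NARS1 and IARS2 were those without untreated replicate 3. The causes were not tested. The 4 untested members had at most 15 counts in any library.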
